A study of Mus musculus with 6 samples.

Results

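Reads of 33 to 50 nt, longer than PIWI-interacting RNAs (piRNAs), are described here among small RNA reads placed on mouse piRNA cluster transcripts. A distinct read sequence was taken as a member when it was 33 to 50 nt long and every place it mapped to lay in 1 piRNA gene, that is, in transcripts of 1 name with the final number removed. Its copies were counted once per library. There were 4755 such sequences with 11329 reads, out of 27231 sequences and 59263 reads in all, and they fell on 182 of 214 piRNA genes. Reads of 20 to 32 nt of 1 piRNA gene numbered 34787 and served for comparison, and another 2228 reads of 33 to 50 nt lay on several piRNA genes and were set aside. The cells were purified primordial germ cells of male mice at E13.5 (the embryonic day), with 3 control libraries of untreated cells and 3 IR libraries of cells given ionizing radiation. The labels state no dose and no time after irradiation, and no strain. Nor do they say whether the replicates are separate animals or cultures. Each p-value therefore reflects the spread of these libraries alone, and that spread may be technical. The deposited reads do not include mRNA levels, so the cell type was not checked against marker genes.

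Primordial germ cells are the embryonic precursors of sperm and eggs, and in the male they begin to use the piRNA pathway before birth. A piRNA is cut from a long single-stranded precursor, loaded into a PIWI protein that sets its length, often begins with U, and guides silencing of transposons. Longer reads of a size-selected library can be pieces of other RNAs, such as structured RNAs or mRNAs, whose sequence also occurs in a cluster transcript. The labels' protocols give a size selection of 18 to 50 nt, so the upper limit of the class is also that of the library preparation.

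The reads of 33 to 50 nt came mostly from a single stretch of 92 nt on pi-D730040F13Rik. Of the 11329 reads, 6312 (55.7%) lay in it, all in sense. Its sequence is known as that of 4.5SH RNA, a short transcript of RNA polymerase III in rodents that is related to the B1 repeat. No file used here holds the 4.5SH sequence, so the name is background knowledge, and reads were assigned to the stretch by position. It spans positions 12112 to 12203 of the first transcript of pi-D730040F13Rik, counted from 1.

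Among the 8 sequences with most copies, the one outside the pile-up was a piece of U2, the small nuclear RNA (snRNA) that pairs with the intron branch point in the spliceosome. It is printed with the next 2 most frequent U2 reads, because these 3 show the leading ends of U2 reads placed in 1 piRNA gene. Capitals mark nucleotides 4 to 36 of U2, which all 3 share.
U2, nucleotides 4 to 38: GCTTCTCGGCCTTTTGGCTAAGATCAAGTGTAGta
U2, nucleotides 1 to 37: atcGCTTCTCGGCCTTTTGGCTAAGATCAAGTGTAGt
U2, nucleotides 1 to 36: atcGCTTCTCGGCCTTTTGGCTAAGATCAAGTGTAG

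By library there were 1720, 1697 and 2045 reads of 33 to 50 nt without irradiation and 2491, 2048 and 1328 with it. Control libraries thus had 22.0%, 26.5% and 24.5% of their reads of 1 piRNA gene in this class, and IR libraries 27.6%, 23.4% and 22.6%, out of 5889 to 9017 such reads a library. The groups overlapped, and the share did not differ beyond the spread between libraries (24.3% ± 2.26 and 24.5% ± 2.73, SD, n = 3; exact two-sided permutation p = 0.9, where 0.1 is the smallest that 3 against 3 allow). In a library, 3 reads equal 0.120% to 0.226% of its long reads. The files hold only reads placed on cluster transcripts, so totals are not the depth of a library, and intervals and limits cover counting error only.

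The lengths did not stop at the limit of the class. There were 1494 reads of 31 nt, 1431 of 32 nt, 1469 of 33 nt and 1178 of 34 nt, and at the upper end 43 of 49 nt, 25 of 50 nt and 16 of 51 nt. Numbers then stayed between 835 and 1151 from 35 to 41 nt, with 989 reads of 39 nt, and fell to 577 at 42 nt and 362 at 43 nt. The median was 37 or 38 nt in each library. The pile-up made up 65.6% to 66.6% of reads of 39 to 41 nt but 20.9% of those of 44 nt. Of the other classes, reads made almost entirely of A had a median of 44 nt.

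**Figure D1:**
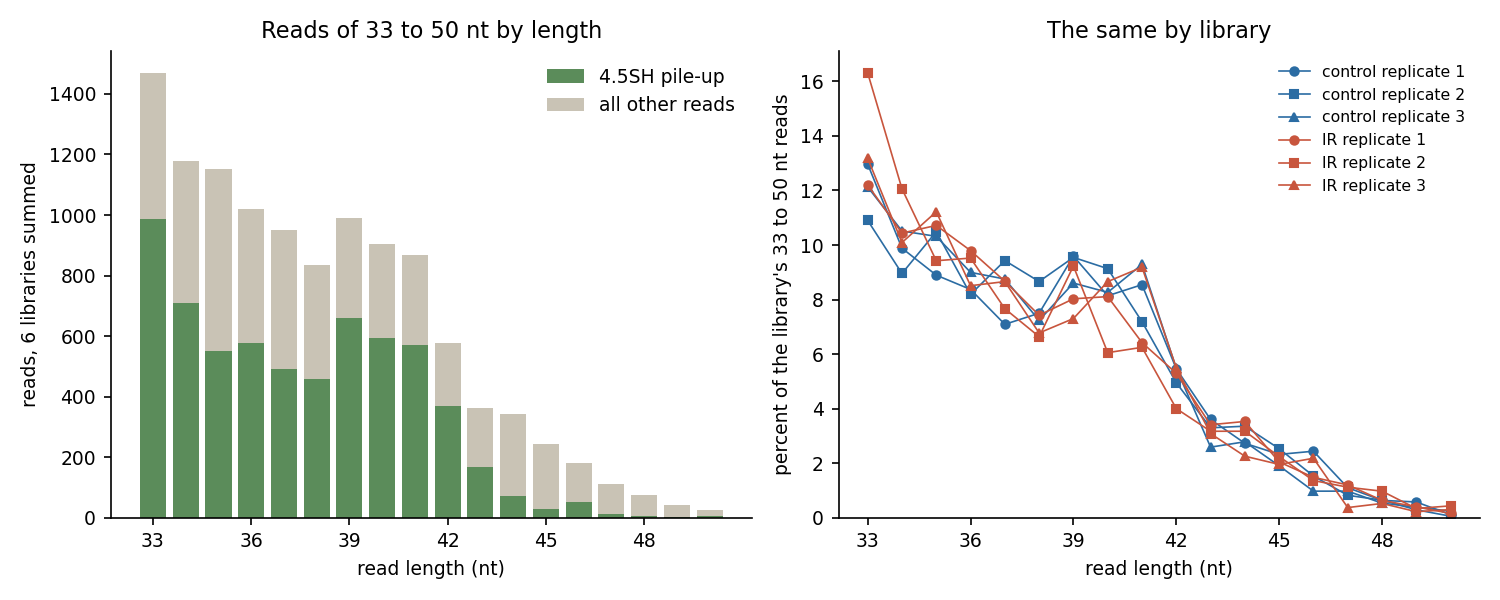
Left, reads of 33 to 50 nt by length in nt, the 6 libraries summed, split into the 4.5SH pile-up and all other reads; right, the percent of each library's long reads at each length, 1 line per library. The pile-up holds 987 of 1469 reads at 33 nt and has a second rise at 39 to 41 nt, and the lines of control and IR libraries cross throughout.

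Sources were found by exact match, in sense, to GENCODE vM21 transcripts of the same build, and reads with at least 80% of 1 base formed classes of their own. After the pile-up came reads with no match (2285 reads, 20.2%), mRNA (1580, 13.9%), snRNA (461, 4.07%), oligo(A) (381, 3.36%) and other transcripts (264, 2.33%). Few reads remained: 29 of oligo(T), 15 of microRNA genes, and 1 each of small nucleolar RNA and of the class misc_RNA. Transfer RNA sequences were not in the reference used here, so tRNA fragments lie among the unmatched reads. None of the long reads matched a transcript annotated as ribosomal RNA or as mitochondrial tRNA, whereas reads of 20 to 32 nt held 22 and 185. This allows a share of up to 0.0265% of the long reads counted here for each annotated class. Ribosomal RNA outside the annotation would lie in other classes.

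**Figure D2:**
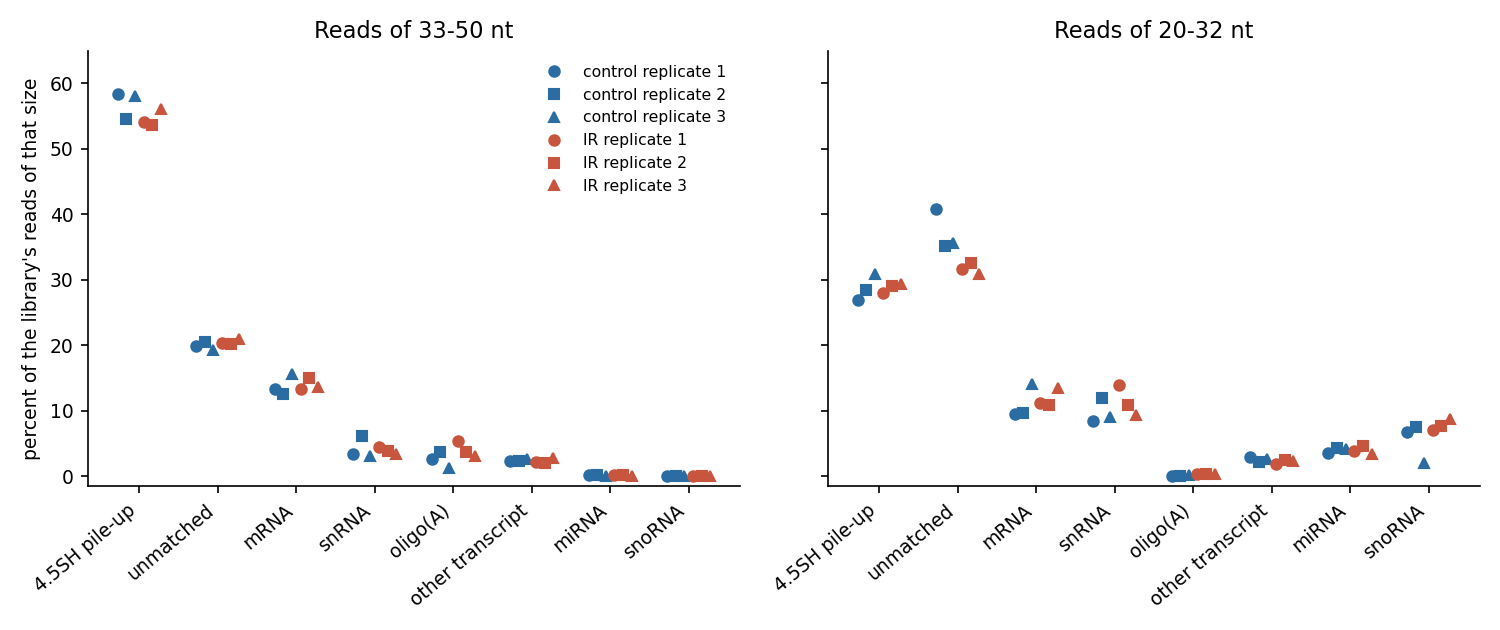
Percent of a library's reads that fell in each source class, for reads of 33 to 50 nt (left) and 20 to 32 nt (right), 1 point per library. The pile-up takes 53.7% to 58.4% of long reads in the 6 libraries, and snoRNA, with 1 long read, is among the classes seen mainly in short reads.

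Control libraries had 58.4%, 54.6% and 58.0% of their long reads in the pile-up, and IR libraries 54.1%, 53.7% and 56.2%. The groups overlapped, with means of 57.0% ± 2.13 and 54.7% ± 1.32 (SD, n = 3). In reads of 20 to 32 nt it took 28.8%. Its counts of long reads did not differ between groups in the fit over all sources and sizes (log2 fold change -0.04, SE 0.12, adjusted p = 0.986, edgeR).

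Within the stretch the long reads had a few preferred ends. A start at position 12135 was the most used: 1199 reads, with 192, 176 and 214 in control and 248, 294 and 75 in IR libraries. IR replicate 3 stood below all others here, and IR replicate 2 above all others. The neighbouring starts 12134 and 12133 held 577 and 198 reads. Together, 1974 of 6312 long pile-up reads (31.3%) began at 12133 to 12135, called the internal start below. A separate set of starts lay 24 to 33 nt downstream, led by position 12160 with 681 reads and followed by 12159 with 558, 12162 with 435 and 12165 with 313. For each of these 4 starts the most used 3' end was position 12200, in the U-run that closes the stretch.

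At the 3' side, 1424 long pile-up reads (22.6%) ended at position 12200 and 913 (14.5%) at 12199. With 12198, this end took 2651 reads, 42% of the pile-up. None of the 6312 long reads both began at the internal start and ended there, since the distance exceeds the class limit. Reads of 20 to 32 nt began most often at 12174 (1912 of 10008 reads, 19.1%). Long reads from 12134 ended most often at 12167 (153 of 577 reads), next to the start at 12168, from which 257 of 271 long reads ended at 12200. These 2 sets of long reads thus abut, but this is partly set by the class limit. A read from 12168 that ended before 12200 would be too short for the class, so earlier ends could not be seen. The pair was also not the most used: long reads from 12135 ended most often at 12173 (267 of 1199 reads), and 12160 began 681 long reads.

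Most long reads of the stretch had ends that short reads also used, but the leading starts differed: no long read began at 12174, and position 12172 began 647 short reads and 1 long read. In each library 98.1% to 99.9% of long pile-up reads had a 5' end that a read of 20 to 32 nt also had, and 87.9% to 98.8% shared a 3' end. These shares describe crowded positions, since the stretch holds 6312 long reads on 92 positions. The 20 to 32 nt reads ended in the same 3' region, with 36.5% at 12198 to 12200, and 14.4% of them began at the internal start. Among long mRNA reads, which are spread thinly, 3.45% ± 1.07 shared a 5' end with a short read (SD, n = 6 libraries).

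**Figure D3:**
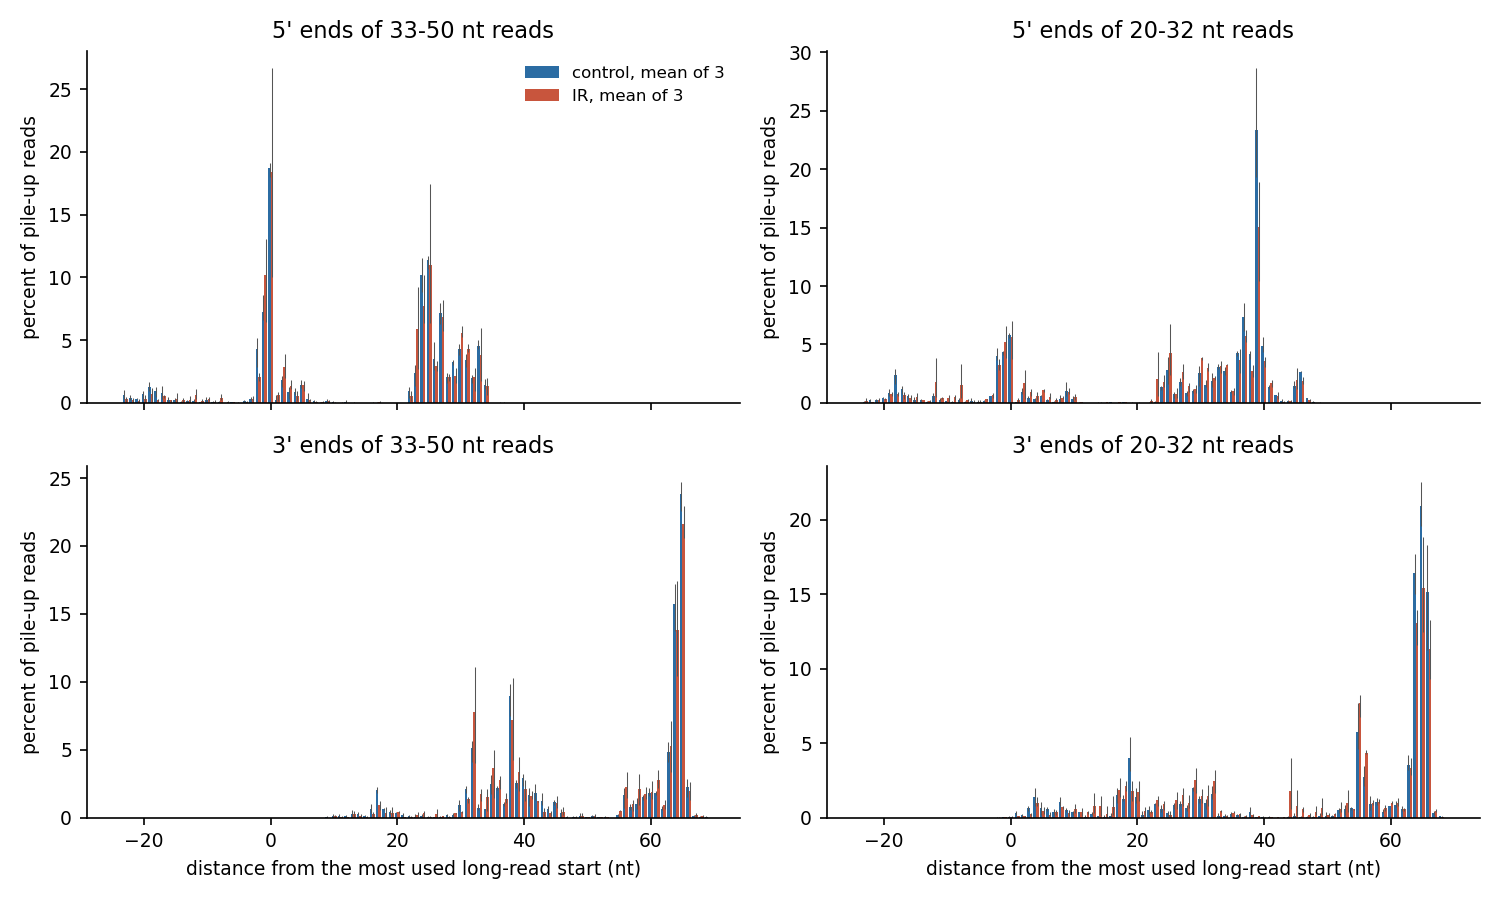
Share of pile-up reads with a 5' end (top) or 3' end (bottom) at each position, for reads of 33 to 50 nt (left) and 20 to 32 nt (right). The x axis is the distance in nt from the most used start of long reads, bars are means of 3 libraries and thin lines run from the lowest to the highest library. Long reads start at distance 0 and again at 24 to 33, and 14.5% and 22.6% end at 64 and 65. The leading start of short reads lies at 39, too near the end of the stretch for a read of 33 nt.

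Neither group of ends of the long reads differed between control and IR libraries beyond their spread. The internal start took 28.7%, 30.5% and 31.8% of long pile-up reads without irradiation and 33.2%, 39.8% and 18.9% with it (exact permutation p = 1). IR replicate 2 was the highest and IR replicate 3 the lowest of the 6. The difference of 0.36 percentage points became 6.24 when IR replicate 3 was left out and -4.22 when IR replicate 2 was. The 3' end took 45.1%, 47.1% and 41.2% in control libraries, against 39.5%, 35.1% and 47.5% after irradiation (exact permutation p = 0.5), and the groups overlapped. The difference of -3.76 points was -7.14 when IR replicate 3 was left out and -0.96 when IR replicate 2 was. In reads of 20 to 32 nt the same 3' end took 38.9%, 43.5% and 40.3% in control libraries and 31.6%, 36.7% and 27.2% after irradiation, without overlap (exact permutation p = 0.1, the smallest possible).

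Counts of 5' end sites were compared in a fit over all sites and sizes, in which 13.9% of 101 sites passed an adjusted p of 0.05 (edgeR's quasi-likelihood test with Benjamini-Hochberg adjustment). Of the 24 long sites tested, 20 of them on pi-D730040F13Rik, none passed. At unadjusted p under 0.05 there were 2, and DESeq2 called 0. The lowest adjusted p of the long sites was 0.0729, shared by the starts at 12158 and 12133. Control libraries had 30, 25 and 16 long reads from 12158 and IR libraries 76, 30 and 69, a log2 fold change of 1.40 (SE 0.46). From 12133 they had 29, 45 and 61, against 24, 21 and 18 after irradiation, a log2 fold change of -1.02 (SE 0.34), so that the groups did not overlap. These 2 sites were named after their values were seen. The site at 12158 passed without IR replicate 2 (adjusted p = 0.0285, edgeR), and that at 12133 passed without IR replicate 3 (adjusted p = 0.0177) and with file totals as library size (0.0418).

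The 6 most used starts gave 33.2% of all long reads, and outside pi-D730040F13Rik the starts were scattered. Of 3419 start sites on other piRNA genes, 2982 (87.2%) held a single read. The sequences behaved alike: 4191 of 4755 (88.1%) were seen once in the 6 libraries together. The 81 sequences present in all 6 libraries held 46.3% of the reads, and 73 of them lay in the pile-up. None of 1479 mRNA sequences and none of 2146 unmatched ones was present in all 6.

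Single sequences did not separate the groups. Of 107 sequences of all lengths tested, 7.48% passed the threshold, and 0 of the 35 long ones did (4 at unadjusted p under 0.05; DESeq2 called 0). The 33-nt read from 12168 to 12200 had 43, 38 and 46 control reads and 50, 62 and 12 IR reads (adjusted p = 0.983, edgeR). IR replicate 3 was the lowest and IR replicate 2 the highest. The 41-nt read from 12160 to 12200 was highest among the IR libraries in replicate 3, with 32, 32 and 49 control reads and 37, 26 and 41 IR reads (adjusted p = 0.949, edgeR). Without IR replicate 2 a 43-nt read ending at the same 3' end passed (adjusted p = 0.0175, edgeR), and without IR replicate 3 another pile-up read did (0.0405).

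U2 was the only 1 of 22 structured RNA genes looked for by name that gave long reads: 337 reads matched Rnu2-10 (chromosome 11, 101658238 to 101658428, plus strand, mm10). Control libraries had 39, 78 and 53 of them, IR libraries 82, 57 and 28. The groups overlapped, and no difference was detected (log2 fold change -0.17, SE 0.41, adjusted p = 0.959, edgeR). The other 21 genes had 0 long reads, which allows up to 0.0265% each of the long reads counted here. A piece of such an RNA was counted only if it was placed in transcripts of 1 piRNA gene. The zeros thus also depend on which stretches the cluster transcripts hold and on that rule, and this was not tested. U1 (Rnu1a1) and U6 (Rnu6), snRNAs of the same spliceosome, had 782 and 1281 reads of 20 to 32 nt and none of 33 to 50 nt. The RNA of the signal recognition particle, Rn7s1, had 109 short reads and 7SK, Rn7sk, had 53.

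The long U2 reads were 5' fragments. Of the 337, 124 began at nucleotide 1 and 189 at nucleotide 4. They ended at nucleotide 38 in 210 reads, at 37 in 63 and at 36 in 41. The 35-nt sequence from nucleotide 4, printed above, had 20, 50 and 25 control reads and 45, 35 and 14 IR reads, and lay on 5-qG3-23659 in sense. Sequences from nucleotide 1 lay on 7-qF3-3125 in antisense. On 5-qG3-23659, 192 long reads and 0 short reads began at that start. On 7-qF3-3125, 181 long and 682 short reads began at the matching start. Any U2 read that lay on both piRNA genes was set aside by the rule of 1 piRNA gene. The U2 ends given here and the 0 short reads thus also depend on that rule, and its effect was not tested.

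Another annotated snRNA gene, Gm22710 (chromosome 1, 118459141 to 118459265, minus strand, mm10), gave 124 long and 142 short reads, all on 1-qE2.3-2. Control libraries had 18, 27 and 10 long reads of it and IR libraries 30, 23 and 16, with overlapping groups and 0.20 as log2 fold change (SE 0.44), with an adjusted p of 0.944 (edgeR). The 124 reads were of 88 sequences, without a single dominant end: the most used starts were nucleotide 33 with 15 reads and nucleotide 86 with 12. The 2 most frequent sequences, with 6 and 5 reads, are printed to show these 2 starts.
Gm22710, nucleotides 86 to 121: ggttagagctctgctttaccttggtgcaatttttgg
Gm22710, nucleotides 33 to 68: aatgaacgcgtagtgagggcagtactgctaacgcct

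Reads of almost pure A occurred 45, 63 and 25 times in control and 132, 76 and 40 times in IR libraries. IR replicate 1 was the highest and control replicate 3 the lowest. The groups overlapped, and the difference did not pass (log2 fold change 0.72, SE 0.47, adjusted p = 0.510, edgeR). Of these 381 reads, 262 lay on 15-qE1-1119 and 42 on 8-qE1-3748, in each case antisense to the transcript, and 11.3% of the class was sense. Of its reads of 20 to 50 nt, 83.7% were of 33 to 50 nt, against 74.4% for oligo(T), 38.7% for the pile-up and 20.2% for U2. Only reads of 1 piRNA gene were counted, and a short run of 1 base can lie on several. These shares thus also depend on that rule, and its effect was not tested. Reads of almost pure T, 29 in all, came mostly from 1 library: 27 were in IR replicate 2.

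Messenger RNA fragments made up 13.8% ± 1.61 of control and 14.0% ± 0.843 of IR long reads (SD, n = 3). They matched 222 mRNAs and 87.3% lay in sense on the cluster transcript. Only sense matches were sought, so a read antisense to the mRNA of its host gene could not enter the class by that mRNA. The sense share is thus partly set by that rule, and such antisense reads would lie in other classes, such as the unmatched reads. In 1170 of 1580 reads (74.1%) the mRNA was that of the gene after which the piRNA gene is named. By part, 831 reads (52.6%) lay in 3' UTRs, 496 (31.4%) in coding sequence and 105 (6.65%) in 5' UTRs. Reads of 20 to 32 nt were divided similarly, with 51.2%, 28.5% and 9.0%.

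The leading mRNAs were spread over many starts. Rplp1, which encodes a protein of the large ribosomal subunit's stalk (chromosome 9, 61913284 to 61914542, minus strand), gave 77 long reads, 16, 10 and 20 of them control and 15, 9 and 7 IR. The log2 fold change, -0.61 with an SE of 0.36, did not pass (adjusted p = 0.510, edgeR), and 58 of the 77 lay in coding sequence. Fth1, the ferritin heavy chain that stores iron (chromosome 19, 9980598 to 9985098, plus strand), gave 73: 6, 13 and 17 against 14, 12 and 11. Noct, a circadian phosphatase and the current name of Ccrn4l (chromosome 3, 51224447 to 51251644, plus strand), gave 64: 7, 10 and 12 against 12, 11 and 12. Of the Noct reads 59 lay in the 5' UTR, whereas that part held 6.65% of all long mRNA reads. Control and IR libraries overlapped for each of the 3 mRNAs. Rps27a, which encodes a fusion of ubiquitin with a ribosomal protein, gave 49 long reads and Cbx5, which encodes the heterochromatin protein HP1 alpha, 43. Neither passed the filter on low counts.

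Over all sources, 11.1% of 36 rows of source and size passed the threshold, and 0 of the 10 long rows did. None was under an unadjusted p of 0.05, and DESeq2 called 0. The median log2 fold change was 0.05 over the long rows and 0.05 over all rows. With no filter on low counts 6 of 1510 rows of all sizes passed. Of the 333 long rows 1 passed, oligo(T) (adjusted p = 0.00179, edgeR), whose reads came mostly from IR replicate 2 as given above.

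By piRNA gene the long reads were uneven. pi-D730040F13Rik, whose host gene is Tmem245 in the annotation (minus strand of chromosome 4, 56866923 to 56947437), held 6359 reads (56.1%), of which 6312 were the pile-up and 14 matched host exons. The next 9 piRNA genes together held 1747 reads (15.4%), and 82 of the 182 had under 10 reads each. Named after a gene were 105 of the 182 and 77 after a chromosome band.

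**Figure D4:**
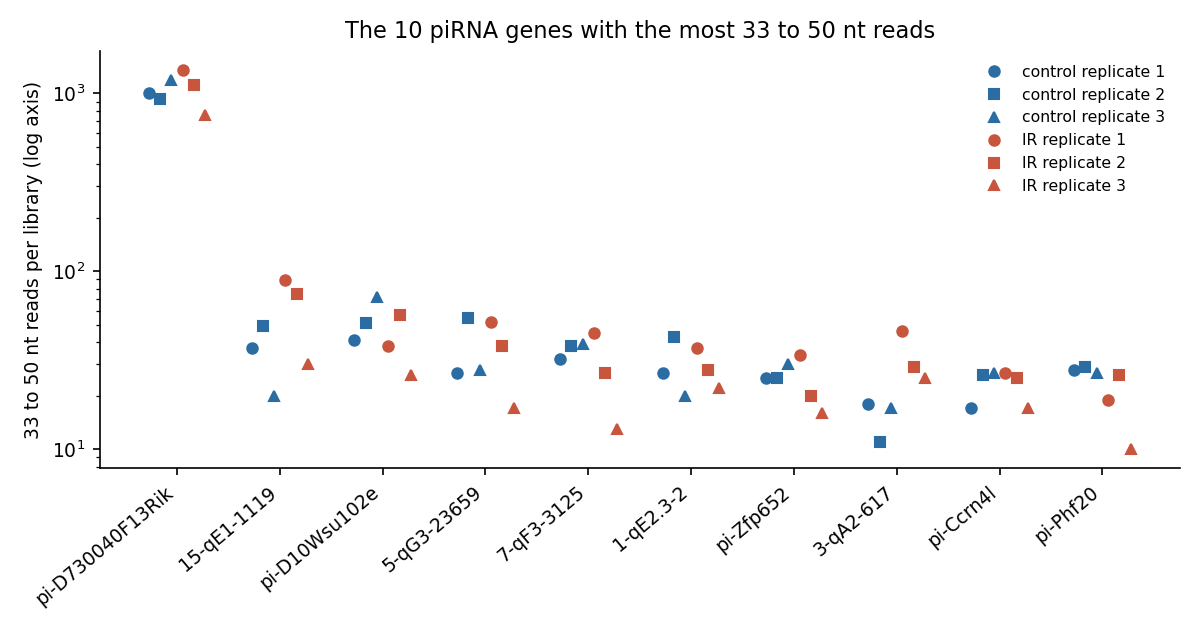
Reads of 33 to 50 nt per library for the 10 piRNA genes with the most such reads, 1 point per library, on a log axis. pi-D730040F13Rik has 756 to 1359 reads a library and the others 10 to 89. The IR points of 3-qA2-617 (25 to 46) lie above its control points (11 to 18).

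Behind pi-D730040F13Rik came piRNA genes of different make-up. 15-qE1-1119 had 300 long reads, mainly the oligo(A) reads given above. 5-qG3-23659 with 217 reads, 7-qF3-3125 with 194 and 1-qE2.3-2 with 177 were mainly snRNA, with 210, 127 and 124 such reads. The 4 remaining piRNA genes named after a gene were mostly unmatched or host mRNA. pi-D10Wsu102e (chromosome 10, 83360221 to 83488505) had 285 reads, 205 of them unmatched, and 26.0% were sense. pi-Zfp652, named after a zinc finger transcription factor gene (chromosome 11, 95712673 to 95835115), had 150, of which 120 were unmatched and 51.3% sense. pi-Ccrn4l had 139 reads, 82% of them sense. pi-Phf20, named after the gene of a chromatin reader of the MOF acetyltransferase complex (chromosome 2, 156196466 to 156309952), also had 139, of which 42.4% were sense.

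Of 109 rows of piRNA gene and size tested, 5.50% passed the threshold, and 0 of the 26 long rows did. A count of 1 long row was under an unadjusted p of 0.05, and DESeq2 called 0. That row was 3-qA2-617, with 18, 11 and 17 control reads and 46, 29 and 25 IR reads. Each IR library was above each control library (log2 fold change 1.05, SE 0.32, adjusted p = 0.0859, edgeR). Its long row passed with all reads (0.0412), and across the alternatives the adjusted p lay between 0.0412 and 0.298. The 20 to 32 nt reads of 3-qA2-617, 31, 17 and 28 against 72, 70 and 38, rose by a like amount and passed (log2 fold change 1.16, SE 0.28, adjusted p = 0.0259, edgeR). Its long reads were of 138 sequences on 120 starts, and 81 of the 146 were unmatched.

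Zmat3 encodes an RNA-binding protein and is a known target of p53, the transcription factor activated by DNA damage. Of 30 listed p53 targets it was the 1 that had a piRNA gene with long reads. Only 214 piRNA genes occur here, and how many of the other targets have one was not counted. This result thus does not set Zmat3 apart from them. pi-Zmat3 (chromosome 3, 32334792 to 32366014, minus strand) had 2, 1 and 3 long control reads and 12, 7 and 5 IR reads. All IR libraries were above all control libraries, but the row did not pass the filter on low counts, and without that filter its adjusted p was 0.227 (edgeR). Its reads of 20 to 32 nt, 4, 2 and 3 against 14, 17 and 13, rose and passed (log2 fold change 2.20, SE 0.47, adjusted p = 0.0190, edgeR). That short row met the filter on low counts only through the IR libraries, where it is high, so its call adds no support for the long reads. Of its 30 long reads, 29 lay in sense, and 16 matched exons of Zmat3, 13 of these in the 3' UTR.

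Another host gene with few reads was singled out after its values were seen. pi-Tacc1, named after the gene of a centrosome-associated coiled-coil protein (chromosome 8, 25154552 to 25256588, minus strand), had 0, 0 and 0 long control reads and 5, 5 and 5 IR reads. The 15 reads were of 15 sequences, all sense, and 12 matched Tacc1 exons. It did not pass the filter. With no filter, 10 of 453 rows of all sizes passed, and it was the only 1 of the 182 long rows (adjusted p = 0.0160, edgeR). Its reads of 20 to 32 nt overlapped between groups, with 7, 8 and 20 against 20, 13 and 11 (log2 fold change 0.29, SE 0.41, adjusted p = 0.765, edgeR).

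Long reads differed from reads of 20 to 32 nt in strand and in first base, in each of the 6 libraries. In the control libraries 85.7%, 83.8% and 85.8% of long reads were sense, against 66.9%, 62.3% and 70.4% of short reads. In the IR libraries 84.3%, 85.4% and 86% were sense, against 66.3%, 64.2% and 68.3%. The mean difference was 18.8 percentage points ± 2.32 (SD, n = 6; exact sign-flip permutation p = 0.03125, the smallest 6 libraries allow; 0.0417 adjusted over 4 comparisons). Since the pile-up is all sense, it was also left out: the sense share of the other reads was then 13.6 points higher in long than in short reads, in 6 of 6 libraries (p = 0.03125, exact sign-flip permutation). With each distinct sequence counted once the difference was 7.98 points (p = 0.03125, exact sign-flip permutation). The sense share of long reads was 85.1% ± 1.12 in control and 85.3% ± 0.841 in IR libraries (exact permutation p = 0.8).

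U, the usual first base of piRNAs, was less frequent in the long reads. It began 17.6%, 17.6% and 19.6% of long reads without irradiation and 17.5%, 18.3% and 17.5% with it. Short reads began with U in 44.4%, 42.4% and 36.1% and in 39.5%, 40.2% and 37.9%. The mean difference of -22.1 points ± 3.58 (SD, n = 6) had the same sign in 6 of 6 libraries (exact sign-flip permutation p = 0.03125, adjusted 0.0417). Without the pile-up it was -16.5 points, with the same sign in 6 of 6. With each distinct sequence counted once it was -5.34 points (p = 0.03125, exact sign-flip permutation). Long reads began with A in 37.3% and with G in 32.9%. In the pile-up 43.0% began with G and 11.3% with U. Long mRNA reads began with U in 33.7%, close to their short counterparts with 31.8%. No difference between control and IR libraries was detected in the first U of long reads (exact permutation p = 0.5). The end bases given next did not overlap between groups in the long reads. They were picked from all first and last bases after their values were seen, and were not tested. The last base was U in 49.9%, 52.8% and 51.1% of control and 42.3%, 46.5% and 48.5% of IR reads, and C in 17.2%, 16.9% and 17.7% against 21.5%, 21.9% and 19.5%. The first base was C in 10.5% to 11% against 11% to 13.9%, with the groups touching but not overlapping. Without the pile-up the groups overlapped for last U and for first C, and not for last C. The shares of all bases at an end add up to the whole, so a lower last U and a higher last C are not separate results.

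**Figure D5:**
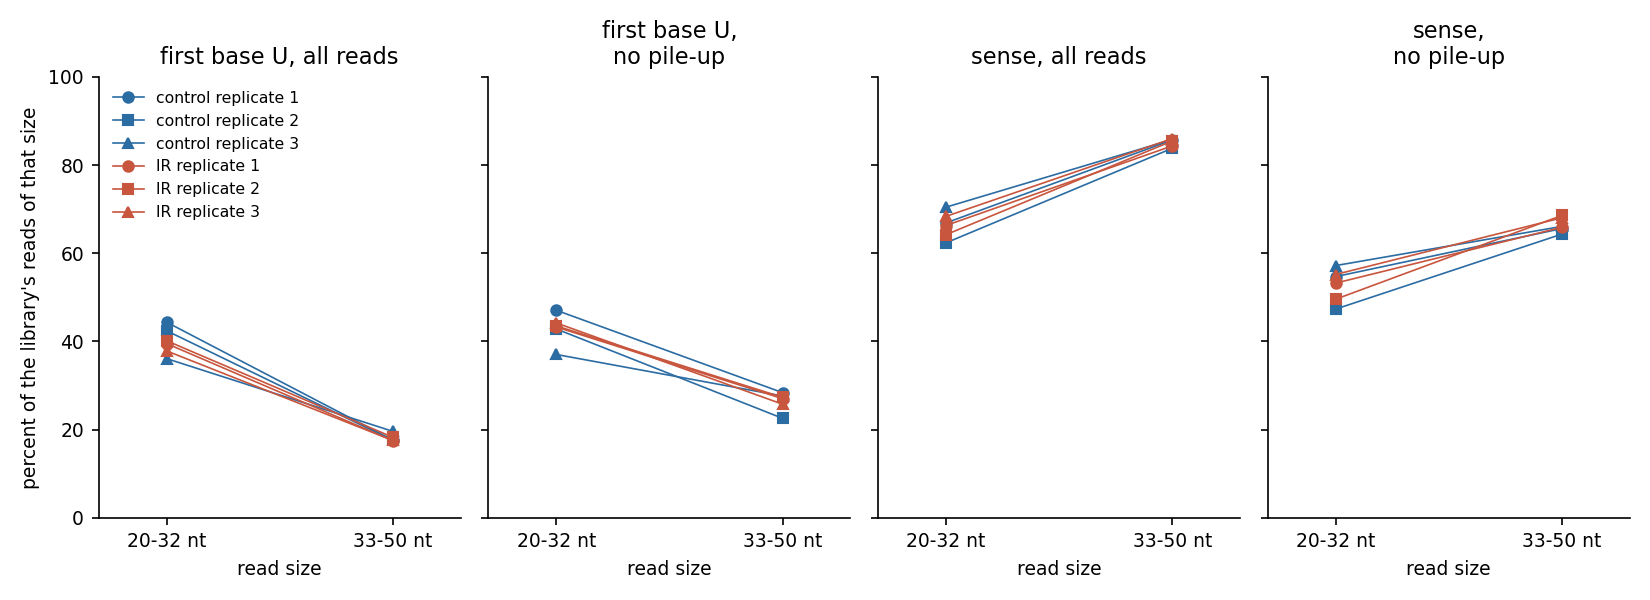
Percent of a library's reads that begin with U (left 2 panels) and that are sense (right 2 panels), for reads of 20 to 32 nt and 33 to 50 nt, with and without the 4.5SH pile-up. Lines join the 2 sizes of 1 library: each falls for U and each rises for sense.

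Structured RNAs, the pile-up included, made up 61.9%, 60.9% and 61.2% of long reads without irradiation and 58.8%, 57.9% and 59.6% with it. The groups did not overlap, with a difference of -2.53 points (exact permutation p = 0.1, the smallest possible, 0.4 adjusted over 4 comparisons), so no call at 0.05 was possible. With reads of 1 mapped place, which leave out the pile-up, the difference was 0.994 points. Compared with short reads of the same library the share was 8.74 points higher (6 of 6 libraries, exact sign-flip permutation p = 0.03125, adjusted 0.0417). This direction rested on the pile-up: without it, the structured share was 22.1 points lower in long reads, again in 6 of 6 libraries. The number of copies per distinct sequence was 1.97 in long and 1.95 in short reads. Their difference of 0.024 was within the spread (exact sign-flip permutation p = 0.406). Without the pile-up there were 1.15 copies per sequence in long and 1.70 in short reads, a difference of -0.547 with the same sign in 6 of 6 libraries (p = 0.03125, exact sign-flip permutation).

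The strand of long reads also depended on the kind of piRNA gene. On piRNA genes named after a gene, pi-D730040F13Rik left out, 80.2%, 76.9% and 78.3% of the long reads of control libraries were sense and 85.5%, 82.2% and 85.2% of those of IR libraries, over 2553 reads. The groups did not overlap, at 78.5% ± 1.62 and 84.3% ± 1.85 (SD, n = 3; exact permutation p = 0.1, the smallest possible). For their short reads the difference was 0.90 points (p = 0.7, exact permutation). On piRNA genes named after a chromosome band, 50.1% ± 2.32 of long reads were sense (SD, n = 6 libraries). This split by name was made after the data were seen. In the first set 49.6% ± 3.08 of long reads matched an mRNA, against 12.1% ± 1.75 in the second (SD, n = 6).

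By read length, 3.45% of 29 lengths tested passed the threshold, and none of the 16 long lengths did (0 at unadjusted p under 0.05, and DESeq2 called 0). The lowest adjusted p among them was 0.541 (edgeR).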

How the data were processed

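Small RNA of 3 control and 3 IR libraries was analysed. The deposited files give, per the values, read counts: each line holds a read sequence, its copies, its number of mapped places (another deposited value, a whole number), strand and a position on a piRNA cluster transcript. Per the submitters' processing notes the build was mm10; the sources used here do not give the aligner, trimming or mismatches. Each file is a part of a library of 7788 to 11280 reads, which limits precision.

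Copies were counted once per sequence and library. Rows of piRNA gene, source RNA, 5' end site (each by size class), sequence and length were fitted whole with edgeR 4.0.16 under R 4.3.3 and limma 3.58.1. Settings were TMM (not for lengths), filterByExpr, quasi-likelihood F-test, Benjamini-Hochberg adjustment over all rows, threshold 0.05. An SE was obtained by dividing a log2 fold change by the root of its F statistic. DESeq2 1.42.0, other library sizes, no filter, size limit 35 nt, reads of 1 mapped place, all reads, a replicate term and omission of each library were the alternatives. Shares were compared by exact permutation over 20 regroupings or 64 sign flips within libraries. The fits were tested on simulated data. Sources were matched to GENCODE vM21 transcripts; a match does not show where a read was made, and repeats or gene copies can share it. The pile-up was a class by position, covered by at least 10 copies at each of its positions. Other software was scipy 1.17.1, pandas 2.3.3, numpy 2.4.6 and matplotlib 3.10.9 in Python 3.11.15.

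Named were the 10 piRNA genes, 12 source RNAs, 8 sequences and 6 sites with most long reads, any past the threshold, Zmat3, and lists of structured RNAs and p53 targets. Members and lists were chosen with earlier results of these data known. Sequences of the pile-up and 1 of its leading reads are not reported here.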

Additional observations from a re-analysis of the deposited data

Results flagged for a closer look

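Reads longer than 50 nt, above the stated size selection and outside the comparisons, were looked at because 1 library held many of them. IR replicate 2 had 86 such reads of 1 piRNA gene, 76 of them of 82 to 85 nt and 77 antisense, on 34 piRNA genes. The other libraries had 16, 7 and 12 (control) and 12 and 5 (IR). The same library held 27 of the 29 oligo(T) reads of 33 to 50 nt as well.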

How the results depend on the processing

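The limits are these. With 3 libraries a group, no difference in a share between groups can reach 0.05, and leaving out 1 library raises the smallest sign-flip p to 0.0625, so the within-library comparisons of first U (-23.2 to -21.1 points), sense share (18.2 to 19.4) and structured share (7.41 to 9.65) then pass no threshold by construction. Most long rows are too low to test. Reads of 1 mapped place left no long sequence or site to test. The settings without the pile-up were added after the data were seen.

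First U and sense share, long against short, kept their direction in the alternatives run, but with each sequence counted once they fell to -5.34 and 7.98 points. In the other alternatives that kept all 6 libraries they were -22.0 to -14.9 and 13.6 to 22.5. The structured share was weaker with each sequence counted once (2.02 points, p = 0.156, exact sign-flip permutation) and from 35 nt (5.72, p = 0.0938), and turned with 1 mapped place (-26.7) and without the pile-up (-22.1). Copies per sequence turned with 1 mapped place (-0.767), with all reads (-0.077) and without the pile-up (-0.547). Since the pile-up maps to both transcripts of its piRNA gene, reads of 1 mapped place leave it out. IR minus control differences turned sign: the long share with each sequence counted once (-0.044) and from 35 nt (-0.572), first U from 35 nt (1.01), with all reads (0.473) and without the pile-up (0.515), and the structured share, -2.53 as reported, with 1 mapped place (0.994). Without 1 library they ranged from -1.36 to 1.27 for the long share, -0.843 to 0.182 for first U and -0.472 to 0.634 for the sense share; the internal start of the pile-up ranged from -4.22 to 6.24. The cause was not tested.

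The replicate numbers did not pair the libraries: same-numbered libraries correlated at -0.21, 0.092 and 0.080 in their deviations over 109 rows. With the replicate block 1 long piRNA gene passed, 3-qA2-617 (adjusted p = 0.0466, edgeR), against 0 without it. Counts of long calls also went from 0 to 1 for piRNA genes with no filter and with all reads, for sources with no filter, and for sites with file totals as library size; without 1 library they ranged from 0 to 1 for sequences and for sites. They stayed 0 for lengths in all alternatives run.

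Some log2 fold changes near 0, none of them called, turned sign. Under DESeq2 these were unmatched (-0.013), reads of several mRNAs (-0.032), Fth1 (-0.054), start 12135 (-0.047), start 12160 (-0.086) and start 12162 (-0.088). With file totals as library size these were Fth1 (-0.027), the 41-nt read (-0.13), start 12135 (-0.068), start 12160 (-0.13) and start 12162 (-0.12). With no filter these were unmatched (-0.073), reads of several mRNAs (-0.089), Fth1 (-0.12), the 41-nt read (-0.12), start 12135 (-0.042), start 12160 (-0.15) and start 12162 (-0.13). With the replicate block these were reads of several mRNAs (-0.013), the 35-nt U2 read (0.037), start 12135 (-0.045) and start 12160 (-0.083). From 35 nt these were reads of several mRNAs (-0.16), Fth1 (-0.15), start 12135 (-0.17), start 12160 (-0.055) and start 12162 (-0.059). With 1 mapped place these were 1-qE2.3-2 (0.032) and unmatched (-0.026). With all reads these were unmatched (-0.022), Fth1 (-0.032), Noct (-0.061), the 33-nt read (0.048), the 35-nt U2 read (0.075), start 12135 (-0.015), start 12160 (-0.042) and start 12162 (-0.047). Without 1 library, ranges that cross 0 were -0.14 to 0.027 for pi-D730040F13Rik, -0.49 to 0.40 for 5-qG3-23659, -0.48 to 0.35 for 1-qE2.3-2, -0.35 to 0.12 for pi-Ccrn4l, -0.049 to 0.053 for unmatched, -0.44 to 0.18 for Rnu2-10, -0.23 to 0.62 for Gm22710, -0.28 to 0.16 for reads of several mRNAs and -0.36 to 0.14 for Fth1. Further such ranges were -0.055 to 0.34 for Noct, -0.35 to 0.19 for the 33-nt read, -0.46 to 0.35 for the 41-nt read, -0.35 to 0.52 for the 35-nt U2 read, -0.90 to 0.36 for the 40-nt read from 12160, -0.57 to 0.049 for the 42-nt read from 12159, -0.29 to 0.24 for start 12135, -0.53 to 0.32 for start 12160 and -0.20 to 0.14 for start 12162.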
